A study of Mus musculus with 6 samples.

Results

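The HoxB cluster is a run of 10 homeobox genes on mouse chromosome 11, Hoxb1 to Hoxb9 and the more distant Hoxb13, which encode transcription factors that bind DNA through a homeodomain. Their transcripts were followed on 6 Affymetrix mouse arrays through every probe set whose platform gene symbol is one of the 10, detected or not. This gave 12 of the 45101 probe sets on the array. Of these, 11 carry 1 symbol and cover 9 genes, and the 12th carries the symbols of both Hoxb8 and Hoxb7, so Hoxb8 has no probe set of its own.

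Hox genes are arranged along their cluster in the order in which they are used along the head-to-tail axis of the embryo. Those at the Hoxb1 end are active in the hindbrain and those at the Hoxb13 end in the tail, and retinoic acid activates the anterior genes early. Polycomb complexes keep Hox genes silent in cells that do not use them: PRC2 methylates lysine 27 of histone H3, and PRC1, through the E3 ligases Ring1a and Ring1b, whose gene symbols are Ring1 and Rnf2, places ubiquitin on histone H2A. Tooth mesenchyme descends from neural crest of the first pharyngeal arch, which forms without Hox expression.

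The 3 Ring1 deletion arrays held pulp RNA of mice with the genotype Ring1a-/-;Ring1b cko/cko;CreERT2, given 40 mg/kg 4-hydroxytamoxifen (OHT) by injection at postnatal days 9 and 13. The 3 Control arrays held pulp RNA of mice with the genotype Ring1a-/-;Ring1b flox/flox;CreERT2, given corn oil on the same days, and all mice were killed at day 17. All 6 samples therefore lacked Ring1a and carried CreERT2, a Cre recombinase that OHT activates, and the drug and the Ring1b deletion differed together and cannot be told apart. The promoter that drives CreERT2, and how many animals gave each sample, are not stated in the sources used here. Each array is labelled a biological replicate. In bulk pulp, fewer cells of a type and less RNA per cell cannot be told apart.

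Between 53.8% and 57.9% of probe sets were called Present on a deletion array and between 54.1% and 56.6% on a control array, Present being the MAS5 call for a signal above its mismatch probes. Odontoblast transcripts marked the tissue in both groups: Dspp, which encodes a dentin protein, had signals of 34716, 31975 and 45677 in deletion and 40999, 32784 and 40915 in control. Both replicate 1 arrays stood apart from the rest. Their ratio of 3' to 5' Gapdh probe sets was 1.31 in deletion and 3.08 in control, against 0.808 and 0.865 on the other deletion arrays and 0.814 and 0.846 on the other control arrays. The Rnf2 probe set used had signals of 3165, 3550 and 2831 in deletion and 2693, 2440 and 2233 in control. Its log2 difference of 0.37 ± 0.17 (SE) did not pass the test (adjusted p = 0.33). Rnf2 probe set 1451519_at had 1507, 1860 and 1744 in deletion and 1017, 1326 and 1195 in control. Its log2 difference of 0.53 did not pass in the probe set fit (adjusted p = 0.292). In both, every deletion signal lay above every control signal, and the remaining Rnf2 probe sets had no Present call. Whether any Rnf2 probe reads the deleted part of the gene was not known here, so these values do not check the labels.

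The cluster was silent on the control arrays by detection call and in part detected on the deletion arrays. None of the 12 HoxB probe sets was called Present on any control array. In deletion, 2 probe sets were Present on all 3 arrays, one of Hoxb3 and the one shared by Hoxb8 and Hoxb7. A further 4, of Hoxb2, Hoxb3, Hoxb6 and Hoxb9, were Present on 2 arrays, and 6 were Present on none. Being Present on at least 1 deletion array and on no control array was true of 6 of 12 HoxB probe sets and of 5.03% of all 45037 probe sets that are not array controls. The same with all 3 deletion arrays was true of 2 of 12 and of 0.526%.

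Tested with limma over all probe sets without a detection filter, 5 of 12 HoxB probe sets rose in deletion, none fell and 7 did not pass (Benjamini-Hochberg adjusted p, threshold 0.05). The background share that rose was 0.477%. With the replicate number as a block, the same 5 rose, beside 1.77% of all probe sets. At an unadjusted p under 0.05 the count was 10 of 12, all higher in deletion, beside 3065 of all 45037 probe sets that rose at that p. The 5 were the probe set of Hoxb2, both of Hoxb3, the one shared by Hoxb8 and Hoxb7, and that of Hoxb13. In 10 of 12 the 3 deletion signals lay above the 3 control signals, against 10.3% of all probe sets, and the 2 that overlapped were those of Hoxb1 and Hoxb7. The mean log2 signal was higher in deletion for 12 of 12, against 57.0% of all probe sets. The median log2 difference (deletion minus control) was 2.84, with a range of 0.40 to 5.55, beside 0.08 over all probe sets and 0.16 over probe sets with no Present call. With signals under an array's detection floor, defined next to the first fold, raised to that floor, the HoxB median was 2.22. Without both replicate 1 arrays the count that rose was 1, that of Hoxb2.

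**Figure D1:**
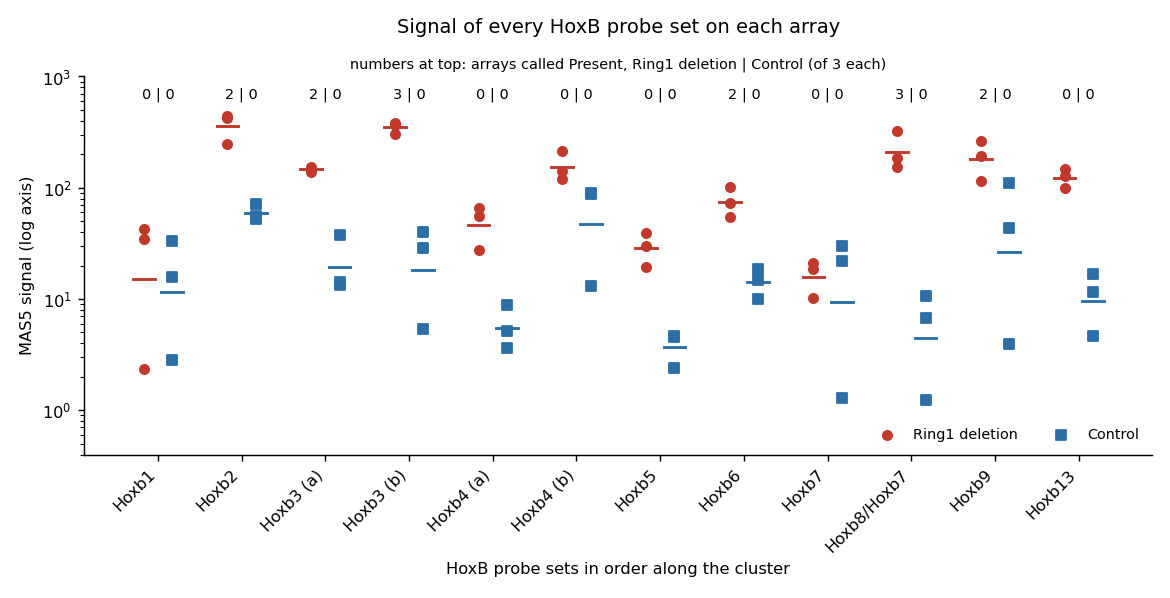
MAS5 signal (vertical log axis, no unit) of the 12 HoxB probe sets in cluster order, with 1 point per array, Ring1 deletion as red circles left of Control as blue squares, and a bar at each group's mean log2 signal; the numbers at the top count arrays called Present. The Hoxb3 and Hoxb4 pairs are 1427605_at (a) and 1456229_at (b), and 1451761_at (a) and 1460379_at (b). The deletion points lie above all control points except for Hoxb1 and Hoxb7.

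The promoters of the 3 HoxB genes held in the RefSeq promoter table (GRCm38.p6, 250 bases before to 50 after the gene start, plus strand) are shown because these genes span the outcomes described next. Hoxb8 shares the probe set with the largest difference in the cluster, while Hoxb4 and Hoxb1 had no Present call. Capitals mark CpG dinucleotides, the base pair that DNA methylation targets and that is dense in CpG islands.
Hoxb8 (chr11:96281655-96281954): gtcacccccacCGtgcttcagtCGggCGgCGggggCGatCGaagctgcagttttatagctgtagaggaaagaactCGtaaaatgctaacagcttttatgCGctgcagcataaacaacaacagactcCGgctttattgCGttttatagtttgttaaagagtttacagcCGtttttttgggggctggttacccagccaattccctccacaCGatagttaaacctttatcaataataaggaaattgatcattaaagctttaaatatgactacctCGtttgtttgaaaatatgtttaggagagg
Hoxb4 (chr11:96318017-96318316): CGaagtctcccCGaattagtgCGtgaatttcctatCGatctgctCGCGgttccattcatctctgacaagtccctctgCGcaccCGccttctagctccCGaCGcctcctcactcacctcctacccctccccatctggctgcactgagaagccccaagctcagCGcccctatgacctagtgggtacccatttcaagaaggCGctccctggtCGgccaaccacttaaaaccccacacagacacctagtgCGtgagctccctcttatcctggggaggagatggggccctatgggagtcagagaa
Hoxb1 (chr11:96365508-96365807): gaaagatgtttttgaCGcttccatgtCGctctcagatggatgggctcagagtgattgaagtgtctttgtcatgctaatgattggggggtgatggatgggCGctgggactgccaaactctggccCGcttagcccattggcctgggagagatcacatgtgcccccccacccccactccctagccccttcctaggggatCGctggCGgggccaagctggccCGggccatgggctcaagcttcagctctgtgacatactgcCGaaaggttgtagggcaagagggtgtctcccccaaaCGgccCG
They held 13, 14 and 10 CpG for Hoxb8, Hoxb4 and Hoxb1, beside a median of 7 over 32851 promoters. At least as many CpG occurred in 37.9%, 36.3% and 43.5% of all promoters, in the same order of genes. A joint binding sequence of Pbx and Hox proteins, TGATNNAT, was searched on both strands and occurred once in Hoxb8 and once in Hoxb1, as in 8.85% of all promoters. The nuclear receptor core sequence AGGTCA and TATAAA were also searched on both strands. AGGTCA occurred once in Hoxb4, on the strand not shown (TGACCT in the letters above), and in 16.3% of promoters. TATAAA occurred only in Hoxb8 among these 3, at 2 places, and in 13.6% of promoters. Both places were on the strand not shown (TTTATA in the letters above). These matches describe letters in the windows, and no binding or methylation was measured.

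At the anterior end, Hoxb2 and Hoxb3 rose, and Hoxb1 was not detected. Hoxb1, which gives the fourth hindbrain segment its identity, had signals of 2.34, 42.4 and 34.6 in deletion and 2.81, 33.5 and 15.9 in control. The groups overlapped, no array was called Present, and the log2 difference of 0.40 ± 1.28 (SE) did not pass (adjusted p = 0.957). Hoxb2, which acts beside Hoxb1 in facial nerve development, had signals of 249, 440 and 420 in deletion and 71.4, 52.0 and 55.5 in control. Every deletion signal lay above every control signal, with deletion replicate 1 the lowest of its group. In deletion Hoxb2 was 6.07-fold higher, with a log2 difference of 2.60 ± 0.34 (SE, adjusted p = 0.0128). This call was lost without control replicate 2 (adjusted p = 0.0656), deletion replicate 2 (0.0724) or deletion replicate 3 (0.0952).

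A fold against the detection floor raises dim signals in a group with no Present call. The floor of an array is its dimmest signal among probe sets with 3 Present calls in the group. A signal under the floor is set to it. The floor lay between 10.5 and 15.5 on the 6 arrays. It is no detection limit of a given probe set: Hoxb13 had no Present call at deletion signals of 99.7 to 146. Such a fold is therefore not a lower bound. The fold compares means of log2 signals, allows nothing for their error, and equals the fitted fold where all signals lay above the floor, as for Hoxb2 and Hoxb3 probe set 1427605_at.

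Hoxb3, which patterns the hindbrain and the pharyngeal arches behind the first, had the clearest detection among genes with a probe set of their own. Its probe set 1456229_at had signals of 384, 369 and 304 in deletion and 39.8, 28.5 and 5.35 in control. The 3 deletion arrays stood close together and were all called Present, while the control signals spread widely. Hoxb3 was 13.9-fold higher against the detection floor by this probe set (log2 difference 4.27 ± 0.68, SE, adjusted p = 0.0277). The log2 difference was 3.38 without control replicate 3, its dimmest array, and 3.35 with signals under 32 set to 32. Leaving out an array ended the call for control replicate 2 (adjusted p = 0.0792), deletion replicate 1 (0.118), deletion replicate 2 (0.126) and deletion replicate 3 (0.138).

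The other Hoxb3 probe set, 1427605_at, had signals of 144, 139 and 155 in deletion and 38.0, 13.2 and 14.2 in control. Here too the groups did not overlap, with 2 deletion arrays called Present. The fitted log2 difference was 2.92 ± 0.54 (SE), or 7.58-fold, at an adjusted p of 0.0498, just inside the threshold, and 2.11 with signals under 32 set to 32. Only without control replicate 1 did the call remain (adjusted p = 0.0303). Without any other array the adjusted p lay between 0.130 and 0.212. In a fit of the 12250 genes with a probe set Present on at least 3 arrays, Hoxb3 was the 1 HoxB gene tested, with an adjusted p of 0.0125, where 1.89% of those genes rose. It entered that fit only through its deletion calls, so nothing is read from this count. It missed the threshold there without deletion replicate 2 (adjusted p = 0.056).

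Hoxb4, known for its capacity to expand blood stem cells when supplied to them, was Present on no array by either probe set. Probe set 1451761_at had signals of 27.4, 66.2 and 55.6 in deletion and 8.79, 3.64 and 5.17 in control (log2 difference 3.08 ± 0.73, SE, adjusted p = 0.117). Probe set 1460379_at had 119, 141 and 215 in deletion and 90.1, 87.5 and 13.1 in control (1.71 ± 0.70, SE, adjusted p = 0.443). Both had every deletion signal above every control signal, and neither passed the test. Without control replicate 3 the log2 difference of 1460379_at was 0.79. That of 1451761_at was 1.54 with signals under 16 set to 16 and 0.62 with those under 32 set to 32.

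In the middle of the cluster the probe set shared by Hoxb8 and Hoxb7 rose, and the probe sets that name Hoxb5, Hoxb6 or Hoxb7 alone did not pass. Hoxb5, a gene of vagal neural crest and the enteric nervous system, had signals of 39.5, 19.5 and 29.9 in deletion and 4.52, 4.66 and 2.39 in control. The groups were apart but no array was Present, and the log2 difference of 2.95 ± 0.75 (SE) had an adjusted p of 0.152. It was 0.83 with signals under 16 set to 16 and 0.10 with those under 32 set to 32. Hoxb6, expressed in lateral mesoderm and limb buds, had 73.1, 101 and 54.6 in deletion and 18.7, 14.8 and 10.1 in control. With 2 deletion arrays Present its signal was 4.69-fold higher against the detection floor (log2 difference 2.39 ± 0.57, SE, adjusted p = 0.127). Its log2 difference was 1.21 with signals under 32 set to 32.

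Hoxb7, a gene of the nephric duct among other tissues, gave no separation by its own probe set. Its signals were 10.2, 18.7 and 21.0 in deletion and 1.30, 29.7 and 21.8 in control, with no Present call. Control replicate 1 alone was low, and the log2 difference of 0.75 ± 1.16 (SE, adjusted p = 0.898) turned to -0.68 without it. The difference was -0.24 with signals under 16 set to 16.

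The probe set shared by Hoxb8 and Hoxb7, 1452493_s_at, had signals of 185, 321 and 153 in deletion and 6.71, 10.6 and 1.24 in control. Hoxb8 takes part in myeloid progenitor growth, and mice without it groom excessively. All 3 deletion arrays were called Present and lay far above the control arrays. In deletion the signal was 16.3-fold higher against the detection floor, with a log2 difference of 5.55 ± 0.83 (SE, adjusted p = 0.0224). The call was lost without control replicate 2 (adjusted p = 0.0516), deletion replicate 1 (0.0848), deletion replicate 2 (0.119) or deletion replicate 3 (0.106). The log2 difference was 4.63 without control replicate 3, 6.18 without control replicate 2, and 3.70 or 2.70 with signals under 16 or 32 set to those values. How much of the signal came from either gene was not measured.

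At the posterior end, Hoxb13 passed the test without being called Present, and Hoxb9 was called Present without passing. Hoxb9, which acts with its paralogs in shaping the ribs, had signals of 114, 195 and 260 in deletion and 3.94, 110 and 43.9 in control. Deletion replicate 1 lay just above control replicate 2, so that the groups were apart by a narrow margin. With 2 deletion arrays Present and 1 Marginal, Hoxb9 did not pass (2.75 ± 1.02 on the log2 scale, SE, adjusted p = 0.369), and its fold against the detection floor was 4.65. Without control replicate 1, whose signal was 3.94, the log2 difference was 1.37, and without control replicate 2 it was 3.77.

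Hoxb13, known from the tail bud and the prostate, had signals of 126, 99.7 and 146 in deletion and 11.5, 16.9 and 4.63 in control. The groups were well apart, and the log2 difference was 3.66 ± 0.63 (SE, adjusted p = 0.0396), or 2.91 and 1.94 with signals under 16 and 32 set to those values. No array of either group was called Present or Marginal, so no fold is given. Leaving out any 1 array ended the call, with adjusted p between 0.0658 and 0.189. Among the 14514 probe sets with no Present call on any array, 0.062% rose in the same fit. Of the 6 HoxB probe sets without a Present call, 4 had all deletion signals above all control signals (both of Hoxb4, and those of Hoxb5 and Hoxb13), beside 7.5% of these 14514.

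**Figure D2:**
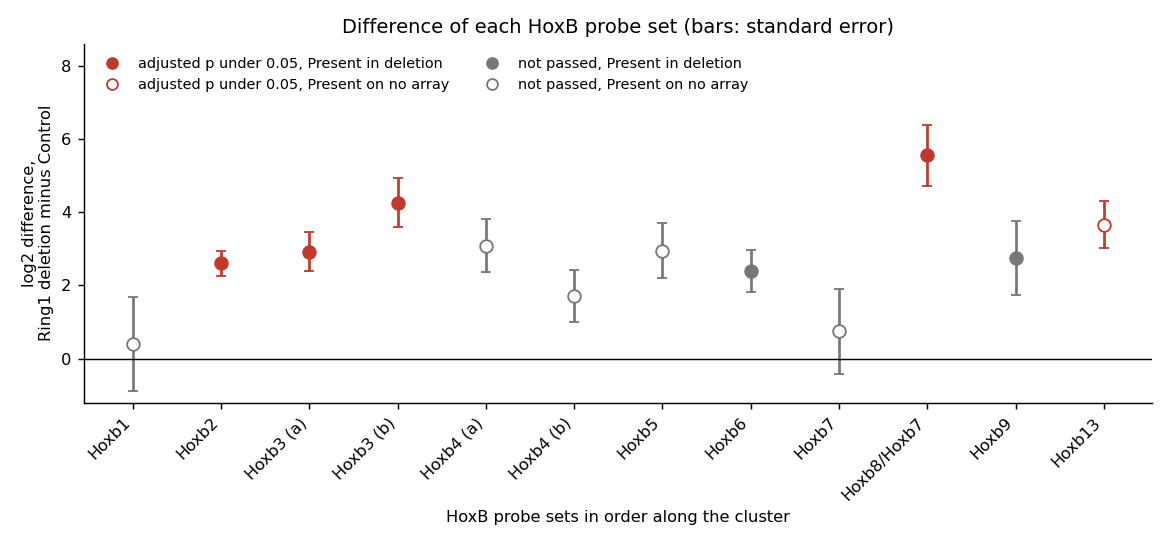
Log2 difference (Ring1 deletion minus Control, vertical axis) of each HoxB probe set in cluster order, with bars of 1 standard error from limma, n = 3 arrays a group. Red marks the 5 probe sets that passed at an adjusted p under 0.05, grey the 7 that did not, and open symbols those called Present on no array. All 12 lie above 0, from 0.40 for Hoxb1 to 5.55 for the probe set shared by Hoxb8 and Hoxb7.

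No order along the chromosome was seen in which members passed the test. Probe sets that passed lay near the anterior end (Hoxb2 and Hoxb3), in the middle (the one shared by Hoxb8 and Hoxb7) and at the posterior end (Hoxb13). Those that did not pass were Hoxb1 at the anterior end itself and Hoxb4, Hoxb5, Hoxb6, Hoxb7 and Hoxb9 between the ones that did. Some of these had log2 differences like those of Hoxb2 (2.60) and Hoxb3 probe set 1427605_at (2.92), which passed. They were Hoxb4 probe set 1451761_at (3.08), Hoxb5 (2.95), Hoxb9 (2.75) and Hoxb6 (2.39). Hoxb4 probe set 1460379_at (1.71), Hoxb7 (0.75) and Hoxb1 (0.40) were lower. With same-numbered arrays set side by side, 11 of 12 HoxB probe sets were higher in deletion in each of the 3 pairs. The share of all probe sets that were higher was not counted by pair, so these counts are a description. The median HoxB log2 difference was 2.47, 2.67 and 3.44 for replicates 1, 2 and 3. Deletion replicate 1 gave the lowest deletion signal for 6 of 12 probe sets and the highest for 2.

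One noncoding transcript of the cluster other than the 10 genes had a probe set. Hoxb5os, a long noncoding RNA that overlaps Hoxb5 and Hoxb6 in the gene table, had signals of 72.2, 129 and 8.59 in deletion and 42.2, 20.2 and 10.8 in control. The groups overlapped, no array was called Present, and its log2 difference of 1.04 ± 0.998 (SE) did not pass (adjusted p = 0.807).

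The 4 Hox clusters, which arose by duplication so that genes of one number are paralogs, are set side by side by counts, with no test between them. Present on all 3 deletion arrays were 1 of 9 HoxB genes with a probe set of their own, 5 of 9 HoxA genes, 6 of 7 HoxC genes and 3 of 8 HoxD genes. Present on at least 1 control array were no HoxB gene, 2 HoxA genes, no HoxC gene and 1 HoxD gene. Of the genes that entered the gene fit, 1 of 1 HoxB, 2 of 5 HoxA, 4 of 6 HoxC and 3 of 3 HoxD genes rose, and none fell, where 1.89% of all tested genes rose. With the replicate number as a block these counts were 1, 3, 6 and 3, where 6.44% of all tested genes rose. Entry to that fit needed 3 Present calls. The HoxB gene that entered had no Present call in control, so it entered only through its deletion calls. The same held for every HoxC gene that entered, every HoxA gene except Hoxa13 and every HoxD gene except Hoxd8. The counts are therefore a description, and nothing is read from them beside the share of all tested genes.

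Among paralogs of the HoxB genes, Hoxd8 and Hoxa13 were called Present in both groups. Hoxd8 had signals of 1311, 1616 and 2181 in deletion and 113, 183 and 128 in control (log2 difference 3.59 ± 0.26, SE, adjusted p = 0.00109). Hoxa13 had 58.0, 120 and 91.3 in deletion and 35.4, 43.9 and 38.5 in control. It did not pass (log2 difference 1.13 ± 0.41, SE, adjusted p = 0.216).

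**Figure D3:**
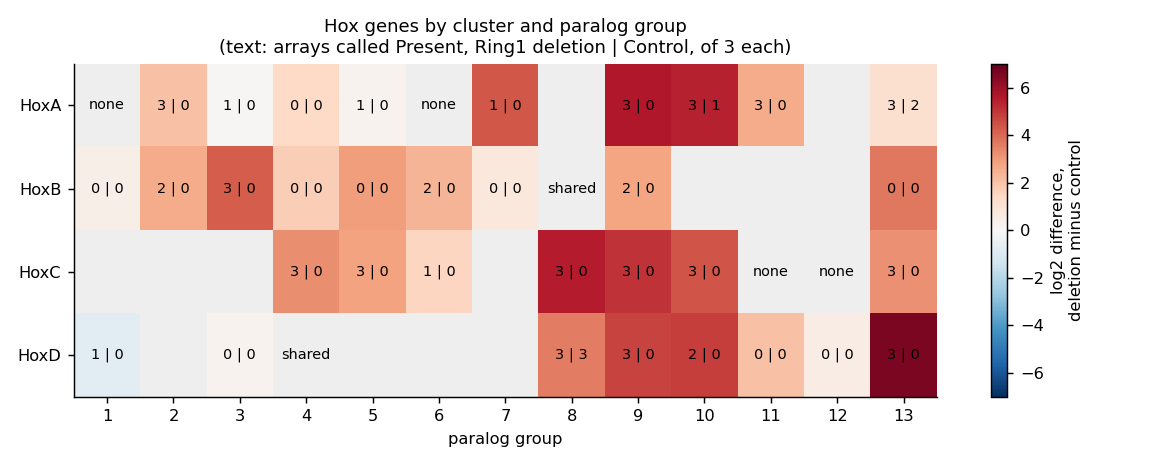
Hox genes by cluster and paralog group, coloured by the log2 difference (Ring1 deletion minus Control) of 1 probe set a gene. The text in each cell counts arrays called Present by the best probe set of the gene, deletion then control, of 3 each; "shared" marks genes with only a probe set of several symbols, "none" genes with no probe set, and empty grey cells have no gene. The HoxB line holds 3 deletion calls at Hoxb3 and no control call.

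Few genes on either side of the cluster passed the test. The 20 protein-coding genes on each side were taken in the order of the RefSeq gene table. Of these 40, 36 had a probe set and 28 were tested in the gene fit: 2 rose, 1 fell and 25 did not pass, beside 1.89% and 0.759% of all genes that rose and fell. Their median log2 difference was -0.07. With the replicate block 2 fell, beside 4.19% of all genes, the further one being Copz2 (log2 difference -0.65, adjusted p = 0.0183 with the block and 0.0929 without it).

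Next to Hoxb1 lies Skap1, an adaptor of T cell signalling, with signals of 60.3, 28.9 and 70.4 in deletion and 18.3, 87.2 and 65.2 in control. The groups overlapped fully (log2 difference 0.08 ± 0.65, SE, adjusted p = 0.977). Next to Hoxb13 lies Ttll6, a tubulin polyglutamylase, with signals of 76.6, 92.7 and 78.9 in deletion and 67.2, 100 and 129 in control. It was Present on 1 control array and did not enter the gene fit. The nearest tested gene on that side, Atp5g1, which encodes a subunit of mitochondrial ATP synthase, differed by -0.43 ± 0.20 (SE) on the log2 scale (adjusted p = 0.363).

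The neighbour with the largest change was Igf2bp1, the 7th gene beyond Hoxb13, which encodes an RNA-binding protein of embryonic tissue. Its signals were 217, 184 and 168 in deletion and 2.38, 2.23 and 13.6 in control, Present on all deletion arrays and no control array. In deletion Igf2bp1 was 14.7-fold higher against the detection floor (log2 difference 5.50 ± 0.76, SE, adjusted p = 0.00822). No array left out ended the call. Igf2bp1 entered the gene fit only through its deletion calls, so its place in the count is a description. In the probe set fit, which has no detection filter, its adjusted p was 0.0183. Of its 4 probe sets 2 rose in the probe set fit. On the Hoxb1 side, Tbkbp1, an adaptor of the kinase TBK1, had 971, 652 and 736 in deletion and 377, 300 and 376 in control, a 2.22-fold rise (log2 difference 1.15 ± 0.22, SE, adjusted p = 0.0277). This call was lost without deletion replicate 1 (adjusted p = 0.0641), deletion replicate 3 (0.0804), control replicate 2 (0.139) or control replicate 3 (0.0661). Neither of its 2 probe sets rose in the probe set fit, and the mean of both gave a log2 difference of 0.41 (adjusted p = 0.651). Sp6, a transcription factor of the dental epithelium also called epiprofin, had 3077, 3829 and 2818 in deletion and 6645, 7018 and 7022 in control. It fell, with a log2 difference of -1.10 ± 0.17 (SE, adjusted p = 0.0107), and missed the threshold without control replicate 2 (adjusted p = 0.0759). Of its 4 probe sets 1 fell in the probe set fit, and the mean of all 4 gave a log2 difference of -0.62 (adjusted p = 0.573).

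**Figure D4:**
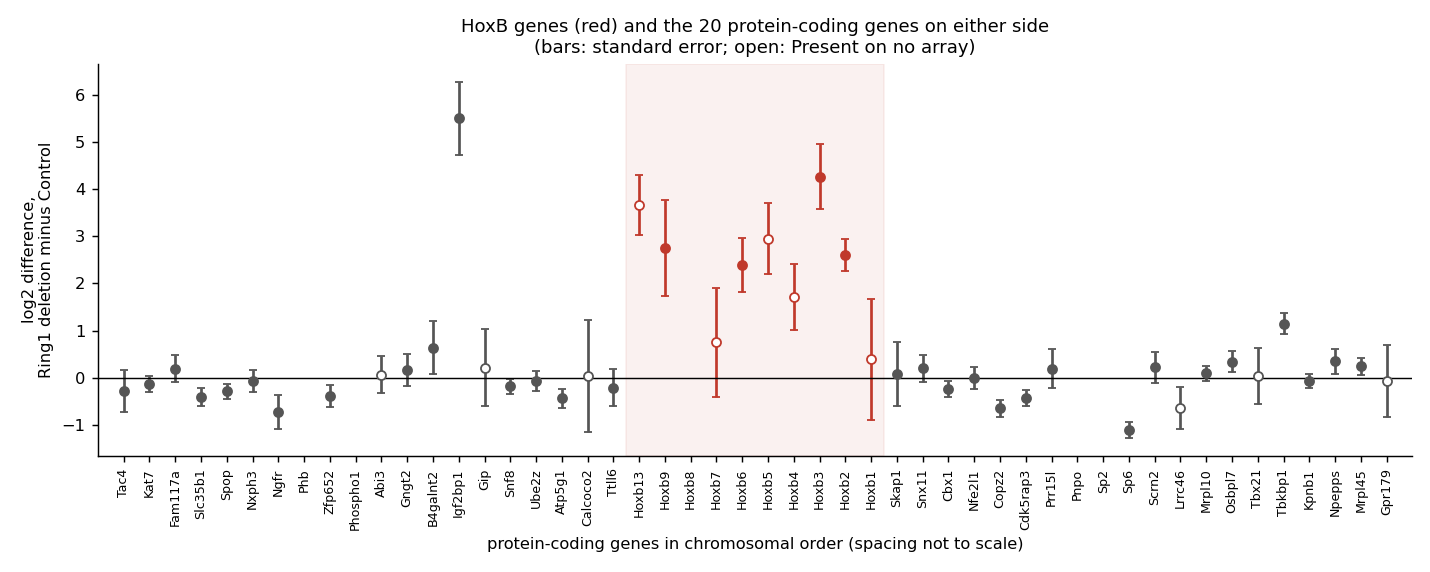
Log2 difference (Ring1 deletion minus Control, vertical axis) of the HoxB genes (red, shaded) and the 20 protein-coding genes on either side (grey) in chromosomal order, spacing not to scale; bars are 1 standard error, open symbols had no Present call on any array for the probe set shown, and genes without a point have no probe set of their own. Beyond the cluster Igf2bp1 stands out at 5.50, and the nearest genes on both sides lie near 0.

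Genes known to work with or upstream of HoxB are described by counts, beside the 1.89% and 0.759% of all tested genes that rose and fell. Of Hox cofactors, the homeodomain partners of Hox proteins on DNA, 1 of 6 tested rose and none fell. It was Meis2, with signals of 466, 423 and 553 in deletion and 46.0, 42.2 and 2.0 in control (log2 difference 4.93 ± 1.02, SE, adjusted p = 0.04). Every deletion signal was above every control signal, and 1 control array was called Present. Without control replicate 3 the log2 difference was 3.44, and without control replicate 1 it was 5.70. The call was lost without deletion replicate 1 (adjusted p = 0.0826), deletion replicate 2 (0.112), deletion replicate 3 (0.120) or control replicate 2 (0.0661). It was also lost after quantile normalization (adjusted p = 0.052) and without an intensity trend (0.0765). In the probe set fit, which has no detection filter, Meis2 did not pass (adjusted p = 0.0737). Its 3 deletion calls alone met the filter of the gene fit, so the count is a description. Pbx3 differed by 0.79 (adjusted p = 0.069, and 0.00513 with the replicate block, which brought the count to 2) and Meis1 by 1.01 on the log2 scale (adjusted p = 0.268).

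Of upstream regulators of HoxB, 1 of 9 tested rose and none fell. Gata2, a blood and endothelial transcription factor, had signals of 596, 453 and 529 in deletion and 270, 256 and 291 in control, which did not overlap (log2 difference 0.94 ± 0.20, SE, adjusted p = 0.0437). No array could be left out without losing this call, the adjusted p then lying between 0.0719 and 0.191. In the probe set fit Gata2 did not pass (adjusted p = 0.094). The orphan nuclear receptor gene Nr6a1 differed by 1.07 on the log2 scale (adjusted p = 0.0929, and 0.0352 with the block, for a count of 2), and Kmt2a, the histone H3 lysine 4 methylase that maintains Hox expression, by 0.39 (adjusted p = 0.492). None of Cdx1, Cdx2 and Cdx4, caudal factors that activate posterior Hox genes, entered the gene fit. Of these, Cdx1 and Cdx4 were on the array and Present nowhere.

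In the retinoic acid pathway 1 of 14 tested genes rose and none fell. Cyp26b1, which breaks retinoic acid down, had signals of 1032, 654 and 720 in deletion and 170, 99.5 and 126 in control, with no control array called Present. In deletion Cyp26b1 was 6.12-fold higher (log2 difference 2.61 ± 0.27, SE, adjusted p = 0.00431), and no array left out ended the call. It entered the gene fit only through its deletion calls, so the count is a description. Its adjusted p was 0.00696 in the probe set fit, which has no detection filter. Cyp26a1, the other Cyp26 gene tested, had signals of 889, 3102 and 5658 in deletion and 4115, 4744 and 6061 in control. These overlapped (log2 difference -0.97, adjusted p = 0.466). Among enzymes of retinoic acid synthesis, Aldh1a1 differed by -1.64 (adjusted p = 0.0868), Rdh10 by -0.94 (adjusted p = 0.0902), Aldh1a3 by -0.38 (adjusted p = 0.706) and Aldh1a2 by 0.011 on the log2 scale (adjusted p = 0.994). With the replicate block Aldh1a1 and Rdh10 passed (adjusted p = 0.00644 for Aldh1a1 and 0.00264 for Rdh10), as did Rxra, higher in deletion (adjusted p = 0.0245), so that 2 rose and 2 fell, in a fit where 6.44% of all genes rose and 4.19% fell.

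Transcripts of the Polycomb complexes that silence HoxB did not pass in either direction. Of PRC1 subunits 0 of 11 tested passed, with a median log2 difference of 0.28, beside 0.018 over all tested genes. The mean was higher in deletion for 11 of 11, Rnf2 among them, beside 57.0% of all probe sets without a detection filter. That share includes undetected probe sets, and the share among the tested genes was not counted. Of PRC2 subunits 0 of 10 passed, with a median of -0.07. The smallest p in each list belonged to Bmi1, a partner of Ring1b (log2 difference 0.62, adjusted p = 0.12), and to Jarid2, which helps recruit PRC2 (0.60, adjusted p = 0.162). With the block each of these passed (adjusted p = 0.0195 for Bmi1 and 0.0245 for Jarid2).

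Markers of other cells of the jaw were examined because some of those cells use Hox genes or could enter a pulp sample. Of blood and progenitor markers 0 of 6 tested passed, with a summed signal of 1923 to 2464 in deletion and 1850 to 2213 in control. Nor did any of 6 macrophage markers pass (13660 to 21562 in deletion and 12434 to 15769 in control), of 5 endothelial markers (1391 to 2141 in deletion and 1241 to 1645 in control) or of 6 odontoblast markers. Skeletal muscle had 1 tested marker, which did not pass, and Myod1, Myog and Des were Present on no array, as were the blood markers Hba-a1 and Cd3e. With the block 1 macrophage marker rose and 1 odontoblast marker fell. Cartilage and bone markers had a summed signal of 4038 to 10376 in deletion and 1990 to 2373 in control, and 1 of 4 tested rose. This was Col2a1, the collagen of cartilage, with 781, 1212 and 864 in deletion and 105, 105 and 60.4 in control. The fold was 10.7 (log2 difference 3.42 ± 0.29, SE, adjusted p = 0.0017). Col2a1 was Present on no control array and entered the gene fit only through its deletion calls, so the count is a description. Its adjusted p was 0.00279 in the probe set fit, which has no detection filter. With the block 2 rose, Ibsp being the other (adjusted p = 0.0012). Ibsp had the largest signals in the sum, 2017, 8346 and 5861 in deletion and 1017, 1530 and 1289 in control. Without the block it did not pass (log2 difference 1.87, adjusted p = 0.0642). Nor did Sox9 (log2 difference 0.21, adjusted p = 0.771) or Sost (-0.78, adjusted p = 0.533).

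Dental epithelium markers had summed signals of 53450 to 200061 in deletion and 125016 to 171713 in control. Shh alone of the 12 tested passed, and it fell (log2 difference -2.12 ± 0.31, SE, adjusted p = 0.00931). With the block 4 fell and 1 rose. Of 4 Schwann cell and neuron markers, Tubb3 fell (log2 difference -1.03, adjusted p = 0.0258), a call lost in 5 of the 6 fits that left out an array, with adjusted p between 0.0546 and 0.0982. The part of any of these cell types in the HoxB signals was not tested.

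Among the 12250 genes tested, leaving Hox genes out, those whose profile over the 6 arrays lay nearest to Hoxb3 were Meis2, Col2a1, Unc5d, Tbx15 and Slc7a10. Likeness was the Euclidean distance between mean-centred log2 signals, and the distances were 1.78, 1.93, 2.14, 2.20 and 2.21 for these 5 genes in that order. Such a ranking over 6 arrays in 2 groups mainly picks genes with a like difference between the groups, and it is a description. Unc5d encodes a netrin receptor, Tbx15 a T-box transcription factor and Slc7a10 an amino acid transporter.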

How the data were processed

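RNA of mouse dental pulp was amplified before it was labelled with biotin, per the labels' protocols, a step that can compress or skew low levels. The authors deposited 1 signal intensity per probe set, on a linear scale and made with MAS5 per the submitters' processing notes. On each array the mean of these intensities was 500 after trimming 2% at each end. Present, Marginal and Absent calls came from the authors' deposited workbook. Its headers name a group but no replicate, so a call is given per group only, and 12 other per-sample columns of it stayed out. No MAS5 version or chip annotation build is stated in the sources used here. Platform annotation named the probe sets: 34958 had 1 gene symbol, 932 several and 9211 none, and 34754 matched the RefSeq gene table (GRCm38.p6).

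Signals under 1 were set to 1 before log2. The groups, read from the sample titles, were tested in R 4.3.3 by limma 3.58.1 (linear model, empirical Bayes with an intensity trend, both sides, Benjamini-Hochberg adjustment). A first fit held all 45037 probe sets that are not array controls. A second held the 12250 genes with a 1-symbol probe set Present on at least 3 of 6 arrays, represented by the brightest such probe set. Adjusted p of HoxB probe sets come from the first fit and those of other genes from the second, unless stated; both were tested on simulated data. The number of arrays limits the precision.

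Members, gene lists, cell markers and tests were chosen with earlier results of these data known. The naming rule took all HoxB genes, paralogs measured in both groups, neighbours that passed, the nearest neighbours, up to 3 members of each list with the smallest p, and the 5 nearest profiles. Copz2, Aldh1a2, Aldh1a3, Cyp26a1, Ibsp, Rxra, Sost, Sox9 and the Cdx genes were named after their values were seen. Replicate numbers were taken to pair the arrays in an alternative fit, since deviations from the group mean correlated between arrays of one number (0.485, 0.189 and 0.286 for numbers 1, 2 and 3, all above a cut of 0.1). Deletion array 2 with control array 3 gave 0.213 and deletion array 3 with control array 2 gave 0.117, so apart from number 1 the values do not single out arrays of one number. Other alternatives covered normalization, low signals, variance estimation, array weights, the detection filter, probe set choice and left-out arrays.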

Additional observations from a re-analysis of the deposited data

How the results depend on the processing

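The count of HoxB probe sets that rose, 5 of 12, depended on how the variance and low signals were handled, and the direction of the 5 held in every setting run. It was 5 with the replicate block, which pairs same-numbered arrays, and the same 5 passed. It was 6 with array quality weights, 3 after quantile normalization, 1 with a floor of 16, 2 with a floor of 32, 1 without both replicate 1 arrays (chosen after seeing the data), and 0 without an intensity trend or without variance moderation, where 8 of 12 had an unadjusted p under 0.05 in each. Without an intensity trend, 2876 of all 45037 probe sets rose at that unadjusted p. Leaving out 1 array gave 0 to 4 HoxB probe sets that rose at the adjusted p. The HoxB gene count of 1 became 0 without variance moderation, 2 when 1 Present call sufficed, 3 with no detection filter and 3 with the mean of all probe sets, and 0 to 1 with 1 array left out; asking for Present on all 6 arrays left no HoxB gene to test. Over all settings of the probe set fit Hoxb2 passed in 8 of 15 (adjusted p 0.00274 to 0.241). Hoxb3 passed in 7 of 15 by 1456229_at and in 5 of 15 by 1427605_at. The shared Hoxb8 and Hoxb7 probe set passed in 6 of 15 and Hoxb13 in 4 of 15. In the gene fit, which Hoxb3 entered only through its deletion calls, it passed in 17 of 19 settings (adjusted p 0.000801 to 0.23). The log2 difference of Hoxb7 turned to -0.24 with a floor of 16, -0.023 with array weights, -0.68 without control replicate 1 and -0.36 without both replicate 1 arrays, and with a floor of 32 all its signals were at the floor. That of Hoxb1 turned to -0.61 when control replicate 1 was left out, -0.35 for deletion replicate 2 and -0.20 for deletion replicate 3. Over the fits that left out 1 array it spanned -0.61 to 1.74 for Hoxb1 and -0.68 to 1.58 for Hoxb7. For these values the cause was not tested.

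Other counts moved as well. With the replicate block, under which 6.44% of all genes rose and 4.19% fell, regulator and Polycomb genes counted 8 that rose and 2 that fell, against 3 and 0; cell type markers 4 and 6, against 1 and 2; and neighbours 2 and 2, against 2 and 1. Array weights gave 7 and 2 for regulators, 4 and 5 for markers and 4 neighbours that fell. Without variance moderation every one of these counts was 0, and so was that of HoxA, HoxC and HoxD genes that rose (9 with moderation), which was 1 when all 6 arrays had to be Present. Without both replicate 1 arrays, 2 regulators fell, and 3 markers rose and 4 fell. Regulators that rose numbered 1 after quantile normalization, without an intensity trend, with Present on all 6 arrays and with no detection filter. Markers that rose numbered 0 with Present on all 6 arrays, and those that fell 1 with the mean of all probe sets. Neighbours that rose numbered 1 with Present on all 6 arrays, no detection filter or the mean of all probe sets, and those that fell 0 with either mean. Leaving out 1 array gave ranges of 1 to 2 and 0 to 1 for neighbours that rose and fell, 1 to 2 and 0 to 1 for regulators, 1 to 2 and 1 to 3 for markers, and 8 to 12 for HoxA, HoxC and HoxD genes that rose. Over all settings 1 to 789 of all genes and 3 to 798 of all probe sets rose. Low signals limit these data: undetected probe sets scatter widely on the log2 scale, so their fitted log2 differences are imprecise.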
